A study of Mus musculus with 40 samples.

Results

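The 4 genes described here encode thyrotropin-releasing hormone (Trh), its receptors (Trhr and Trhr2) and the enzyme that degrades the released peptide (Trhde). They were chosen by symbol: the rows of the deposited table whose platform annotation names one of these genes, with the row of highest mean kept per gene. Each of the 4 genes had 1 probe set, so 4 of 19505 named genes on the array were members. All 4 passed the filter on dim genes that left 14978 genes for testing, which asked for a log2 signal above 4.60 on at least 4 arrays. Trh exceeded that signal on 27 of 40 arrays, Trhr on 30, Trhr2 on 34 and Trhde on 40.

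The study compared mice with alanine (genotype label Ala92D2HY) or threonine (Thr92D2HY) at position 92 of the type 2 deiodinase, the Dio2 product that makes the active thyroid hormone T3 from thyroxine. The mice were 8 to 10 weeks old, of the background strain labelled C56BL/6, kept at room temperature on chow, and no other treatment is labelled for either genotype. Total RNA of amygdala, cerebellum, hippocampus, prefrontal cortex and striatum was hybridised to Affymetrix arrays, with 4 arrays for each of the 10 groups of region and genotype. The labels name dissected regions without naming animals. The p-values below rest on the spread between arrays of a group, pooled for each gene over the 10 groups, and part of it may be technical. Arrays of different regions may share a mouse, and the region differences, averages and F-test treat all arrays as independent.

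TRH is a short peptide cut from a larger precursor that holds several copies of it, and its ends are closed by a cyclised glutamine and an amide. Neurons of the hypothalamic paraventricular nucleus release it to drive thyrotropin secretion by the pituitary, and T3 represses Trh there. In other brain regions TRH acts as a neuromodulator through Gq-coupled receptors, and the membrane-bound peptidase encoded by Trhde, also called pyroglutamyl peptidase II, inactivates it outside the cell. None of the regions measured here is the hypothalamus.

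By the RefSeq table (GRCm38.p6), Trh lies on chr6:92242061-92244650 (probe set TC0600002743.mm.2), Trhr on chr15:44195924-44235912 (TC1500000346.mm.2), Trhr2 on chr8:122356065-122363294 (TC0800003066.mm.2) and Trhde on chr10:114398820-114802302 (TC1000002886.mm.2). Upstream sequence was matched for 2 of the 4 genes, Trh and Trhde, and is shown because Trh is a textbook target of repression by T3, the hormone whose synthesis the genotype concerns. The 250 bases before each RefSeq start are given 5′ to 3′ on the gene's strand, from chr6:92244651-92244900 (minus strand) for Trh and chr10:114802303-114802552 (minus strand) for Trhde. Capitals mark TGACCTCA and TATAA.
Trh: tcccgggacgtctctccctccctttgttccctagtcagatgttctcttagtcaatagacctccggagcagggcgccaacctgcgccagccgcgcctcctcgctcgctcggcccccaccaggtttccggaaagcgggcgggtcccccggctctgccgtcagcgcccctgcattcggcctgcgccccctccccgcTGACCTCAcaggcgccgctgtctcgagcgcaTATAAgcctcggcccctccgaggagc
Trhde: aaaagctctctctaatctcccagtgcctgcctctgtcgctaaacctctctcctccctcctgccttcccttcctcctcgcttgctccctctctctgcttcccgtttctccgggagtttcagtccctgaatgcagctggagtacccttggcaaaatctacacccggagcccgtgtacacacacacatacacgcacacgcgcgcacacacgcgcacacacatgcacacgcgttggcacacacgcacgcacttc
TGACCTCA, spelled like the site in the Trh promoter at which CREB and the thyroid hormone receptor are known to bind, stood 57 to 50 bases before the Trh start. Its first 6 bases are the reverse complement of AGGTCA, the half-site of nuclear receptors, so the AGGTCA match on the minus strand at 57 to 52 bases overlaps it. TATAA stood 26 to 22 bases before the start. TGACGTCA, the full CREB palindrome, had no match in the Trh window, and none of the 4 motifs had one in the Trhde window. Of 32851 RefSeq windows of the same length, 1.94% held TGACCTCA, 1.55% TGACGTCA and 14% AGGTCA on either strand, and 16% held TATAA on the gene's strand. GC content was 68.8% for Trh and 58% for Trhde. A match is a description of letters, and no binding was measured here.

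Levels are deposited log2 signals, so 1 unit is a 2-fold change. The negative control rows of each array had a median between 5.73 and 6.35, which is taken as the background range, and levels below it carry little order. Marker lists were chosen with earlier results of these data known, so their counts describe the labelled regions and are no independent check of the labels. Of tested markers, 8 of 8 striatum markers were called higher in striatum and 10 of 10 cerebellum markers in cerebellum. In hippocampus 9 of 10 hippocampus markers were called higher, and in prefrontal cortex 8 of 9 neocortex markers. Of all genes tested, 5.71%, 8.69%, 3.57% and 3.28% were called higher in these regions in turn. Tbr1, Fezf2, Lamp5, Rasgrf2, Mef2c and Nrgn were called higher in amygdala too, so the neocortex list does not single out prefrontal cortex. Only 4 of 8 amygdala markers were called higher in amygdala (3.40% of all genes), all 8 with positive differences. Cyp26b1, Lypd1, Nr2f2 and Dlk1 had their largest positive difference in amygdala. Rspo2 had it in hippocampus (2.20, against 1.46 in amygdala), Etv1 in cerebellum (3.92), Tfap2d in prefrontal cortex (2.31) and Meis2 in striatum (4.04). The amygdala list thus does not single out amygdala either. Markers of other tissues were highest on certain arrays of a region. Ala amygdala replicate 1 and, by a small margin, Thr amygdala replicate 5 had the highest striatum marker levels among amygdala arrays. Ala amygdala replicate 2 and Ala striatum replicate 36 had the highest choroid plexus levels of their regions. Thr hippocampus replicates 23 and 24 had the highest thalamus levels of the hippocampus. All 8 prefrontal cortex arrays carried olfactory bulb markers.

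The first question was where in these regions each gene was expressed. Region accounted for 69.8% of the variance of Trh over the 40 arrays, 89.6% of that of Trhr, 84.6% of that of Trhr2 and 94.1% of that of Trhde. Genotype within region accounted for 2.63%, 0.497%, 1.92% and 0.604%, and the spread within groups for 27.6%, 9.94%, 13.5% and 5.34%. The 4 genes each had their own regional order: Trh was highest in amygdala and prefrontal cortex, Trhr in amygdala, Trhr2 in striatum and Trhde in cerebellum.

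**Figure D1:**
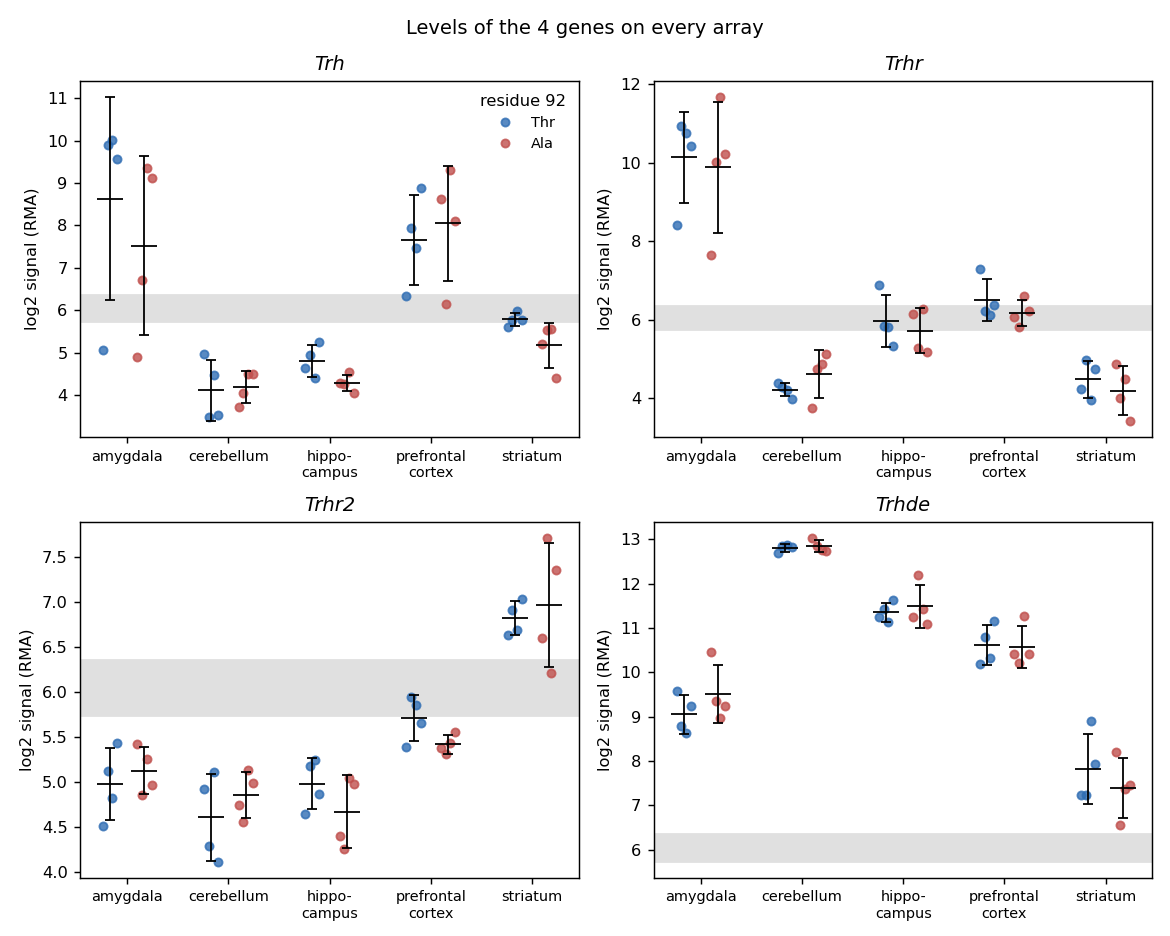
Log2 signal of Trh, Trhr, Trhr2 and Trhde on each of the 40 arrays by region (x axis), with Thr arrays in blue and Ala arrays in red. Horizontal bars and whiskers are the group mean and SD (n = 4), and the grey band is the range of the arrays' negative control medians (5.73 to 6.35). Each panel has its own y axis; Trh in amygdala spans 4.90 to 10.01, and Trhde lies above the band on all arrays.

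Each region was set against the mean of the other regions with limma, and calls needed a difference of at least 1 log2 unit with an adjusted p under 0.05 (Benjamini-Hochberg over 14978 genes). In amygdala 2 of the 4 genes were called higher (Trh and Trhr) and 1 lower (Trhde), against 5.84% of all genes tested, 3.40% higher and 2.44% lower. In cerebellum 1 was called higher (Trhde) and 2 lower (Trh and Trhr), against 18.7% of all genes, 8.69% higher and 10.1% lower. Hippocampus had 1 called higher (Trhde) and 1 lower (Trh), against 5.91% of all genes, 3.57% higher and 2.34% lower. In prefrontal cortex only Trh was called, higher, against 5.21% of all genes, 3.28% higher and 1.94% lower. Striatum had 1 called higher (Trhr2) and 2 lower (Trhr and Trhde), against 10.9% of all genes, 5.71% higher and 5.20% lower. Regional calls were thus common among all genes, above all in cerebellum, and each of the 4 genes was called in at least 1 region.

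Trh, the precursor of the peptide, ran in amygdala from 4.90 to 10.01 with a median of 9.23, and its mean was 8.08 ± 2.17 (SD, n = 8). In prefrontal cortex it ran from 6.15 to 9.31 with a median of 8.02 and a mean of 7.85 ± 1.15. In striatum the lowest, median and highest values were 4.41, 5.58 and 5.99. Hippocampus (4.06 to 5.26, median 4.47) and cerebellum (3.49 to 4.96, median 4.26) lay below the background range on all 16 arrays. Set against the negative control median of its own array, Trh was above it on 8 of 8 prefrontal cortex arrays, 6 of 8 amygdala arrays, 1 of 8 striatum arrays and no cerebellum or hippocampus array.

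Against the other regions Trh was higher by 2.57 ± 0.42 (SE) in amygdala (limma adjusted p = 3.84e-06) and by 2.29 ± 0.42 in prefrontal cortex (adjusted p = 3.33e-05). It was lower in cerebellum, with a difference of -2.34 ± 0.42 (adjusted p = 6.33e-06), and in hippocampus, with -1.84 ± 0.42 (adjusted p = 0.000572). The striatum difference of -0.68 ± 0.42 was not called (adjusted p = 0.195). These values compare the listed region with a mean that includes regions at background, where a log2 difference understates a change. The SE pools the spread of all groups, and the SD of Trh was 2.17 in amygdala against 0.39 in hippocampus. The SE and p-value for amygdala are thus more precise than the amygdala arrays alone would give.

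Amygdala and prefrontal cortex had the highest Trh levels, and striatum, hippocampus and cerebellum lay at or below background and are not ranked among themselves. With the pooled spread, which is narrow for both regions, amygdala and prefrontal cortex differed by 0.22 ± 0.53 (95% interval -0.84 to 1.29, limma adjusted p = 0.850). That difference depended on single arrays: it was called at 1.67 (adjusted p = 0.000536) in a fit, chosen after seeing the data, without amygdala replicates 1, 2 and 5, hippocampus replicates 23 and 24 and striatum replicate 36. Prefrontal cortex exceeded striatum by 2.37 ± 0.53 (adjusted p = 0.000360). Striatum and hippocampus differed by 0.93 log2 units (hippocampus minus striatum -0.93 ± 0.53, adjusted p = 0.179) and cerebellum and hippocampus by -0.39 ± 0.53 (adjusted p = 0.571). The cerebellum minus striatum difference of -1.33 ± 0.53 was called (adjusted p = 0.0313) between levels at or below background, but was lost with robust eBayes (adjusted p = 0.0596) and when any 1 of 5 single arrays was omitted. Ranges did not overlap between prefrontal cortex and each of cerebellum, hippocampus and striatum, whereas amygdala overlapped every region through its low arrays.

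The 8 amygdala arrays did not carry Trh alike. Ala replicates 1 to 4 stood at 4.90, 6.71, 9.35 and 9.12, and Thr replicates 5 to 8 at 5.06, 9.90, 10.01 and 9.56. Replicates 1 and 5 were below the background range, 1 in each genotype, and 5 of the other 6 arrays were above 9. Trhr was also lowest on replicates 1 and 5, at 7.64 and 8.41, against 10.01 to 11.66 on the other 6 arrays. The mean of 8 striatum markers was 12.18 on replicate 1 and 10.02 on replicate 5, the highest of the region, against 8.64 to 9.84 on the other amygdala arrays and 15.46 to 16.05 in striatum itself. The 9.84 was that of replicate 8, where Trh stood at 9.56. The mean of 9 amygdala markers was 9.04 on replicate 1, the lowest of the region, and 9.87 on replicate 5, within the 9.74 to 10.38 of the other 6. Of the markers called higher in amygdala, Nr2f2 was 11.30 and 13.46 on replicates 1 and 5, against 13.75 to 15.07 on the others. Dlk1 was 4.81 and 6.78, against 7.60 to 9.00. Lypd1 was lowest on replicate 1 but within the range of the others on replicate 5, and Rspo2 was lowest on neither. Among the other markers Etv1 and Sim1 were lowest on replicate 1. Meis2 was highest on replicate 1 (14.76), Cyp26b1 was highest on replicate 5 (6.86), and Tfap2d was at neither end on these arrays. The part of these transcripts in the Trh and Trhr levels was not tested, and in bulk tissue fewer cells of a type and less RNA per cell cannot be told apart. Without replicate 1 the amygdala difference of Trh from the other regions was 3.00, without replicate 5 it was 3.16, and Trhr gave 5.15 and 5.06.

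**Figure D2:**
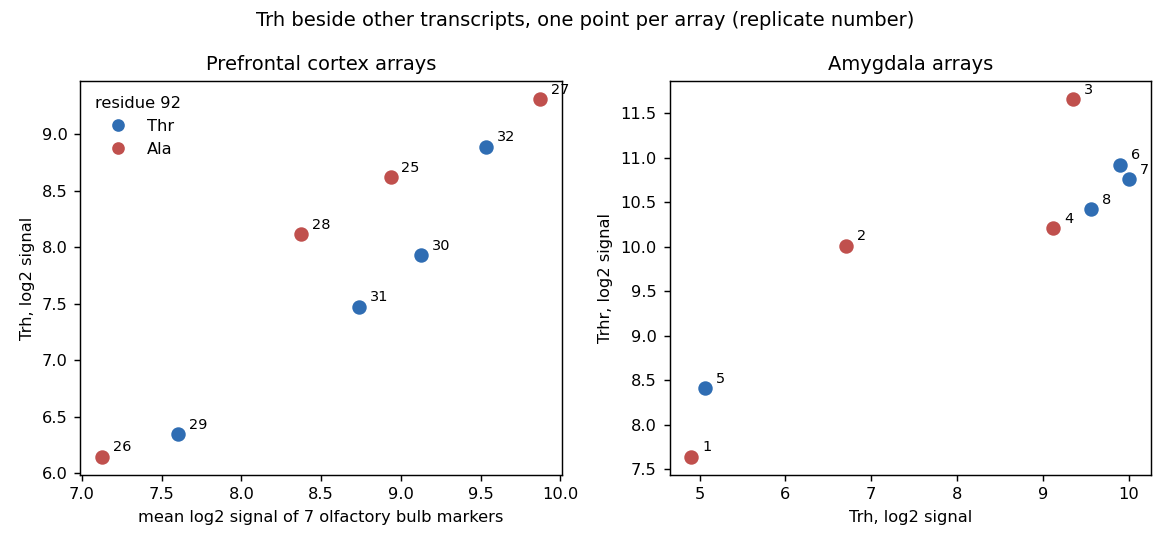
Left, log2 signal of Trh against the mean log2 signal of 7 olfactory bulb markers on the 8 prefrontal cortex arrays; right, log2 signal of Trhr against that of Trh on the 8 amygdala arrays. Points are arrays with their replicate numbers, Thr in blue and Ala in red, and replicates 26 and 29 on the left and 1 and 5 on the right are lowest on both axes.

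In prefrontal cortex, Ala replicates 25 to 28 had Trh at 8.62, 6.15, 9.31 and 8.11 and Thr replicates 29 to 32 at 6.35, 7.93, 7.47 and 8.89. The mean of 7 olfactory bulb markers on the same arrays was 8.94, 7.13, 9.87 and 8.37 in Ala and 7.60, 9.13, 8.74 and 9.54 in Thr. The arrays with the lowest Trh, replicates 26 and 29, had the lowest marker means, and replicate 27 was highest in both. Outside prefrontal cortex the marker mean ran from 5.11 to 6.26, and in amygdala, where Trh was also called higher, from 5.11 to 5.69. Of the 7 markers, 4 to 6 were above the negative control median on each prefrontal cortex array. Trpc1, counted on every array, was no lower in amygdala (10.03 to 11.08) than in prefrontal cortex (9.48 to 10.46). Tbx21 stayed below that median on all 8 prefrontal cortex arrays, at 4.00 to 5.58. Th, which encodes tyrosine hydroxylase and marks dopaminergic cells of the bulb, ran from 8.98 to 13.18 there, and Eomes, a transcription factor of mitral and tufted cells, from 5.16 to 10.80. The part of bulb tissue in the prefrontal cortex level of Trh was not tested, and since all 8 arrays carried these transcripts no value without them can be given.

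Trhr encodes the main TRH receptor of brain and pituitary. In amygdala its lowest, median and highest values were 7.64, 10.32 and 11.66, with a mean of 10.00 ± 1.34 (SD, n = 8), and all 8 arrays lay above those of every other region. Prefrontal cortex ran from 5.82 to 7.29 (median 6.21) and hippocampus from 5.17 to 6.89 (median 5.82), around the background range. Cerebellum (3.74 to 5.11, median 4.33) and striatum (3.42 to 4.98, median 4.36) were below it. Trhr was above the negative control median on 8 of 8 arrays in amygdala and in prefrontal cortex, on 3 of 8 in hippocampus and on none in cerebellum and striatum.

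The amygdala level of Trhr exceeded the mean of the other regions by 4.77 ± 0.28 log2 units (limma adjusted p = 1.63e-16). The difference was 4.84 in the Thr arrays and 4.71 in the Ala arrays taken alone. The SD of Trhr was 1.34 in amygdala and 0.44 to 0.59 elsewhere, so the pooled SE is too small for amygdala here too. Cerebellum was lower by -2.21 ± 0.28 (adjusted p = 7.02e-09) and striatum by -2.31 ± 0.28 (adjusted p = 4.95e-09), while hippocampus (-0.43 ± 0.28, adjusted p = 0.286) and prefrontal cortex (0.19 ± 0.28, adjusted p = 0.700) were not called. In pairs, amygdala exceeded prefrontal cortex, the next in order, by 3.67 ± 0.36 (adjusted p = 3.51e-10). Prefrontal cortex and hippocampus did not differ beyond their spread (hippocampus minus prefrontal cortex -0.49 ± 0.36, 95% interval -1.21 to 0.23, adjusted p = 0.395). Hippocampus exceeded cerebellum (cerebellum minus hippocampus -1.43 ± 0.36, adjusted p = 0.000809), and cerebellum and striatum differed by 0.08 ± 0.36 (95% interval -0.64 to 0.80, adjusted p = 0.868). Trh and Trhr were thus both high in amygdala, whereas prefrontal cortex, where Trh was also called higher, had Trhr close to background.

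Trhr2 encodes the other TRH receptor of rodents. In striatum it ran from 6.20 to 7.71 with a median of 6.80 and a mean of 6.89 ± 0.47 (SD, n = 8), above the negative control median on 8 of 8 arrays. Elsewhere it was above that median on 1 prefrontal cortex array of 8 and on none in amygdala, cerebellum or hippocampus, whose means were 5.05 ± 0.32, 4.73 ± 0.38 and 4.82 ± 0.36. The prefrontal cortex values ran from 5.31 to 5.95. No array of another region reached the lowest striatum array.

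Striatum exceeded the other regions by 1.85 ± 0.14 (limma adjusted p = 2.79e-14), and this was the region in which Trhr2 was called. The differences in amygdala (-0.45 ± 0.14, adjusted p = 0.0118), cerebellum (-0.85 ± 0.14, adjusted p = 2.08e-06) and hippocampus (-0.73 ± 0.14, adjusted p = 7.66e-05) passed the p threshold but stayed under 1 log2 unit, at levels below background. Prefrontal cortex differed by 0.19 ± 0.14 (adjusted p = 0.373). All 4 pairs with striatum were called, from 1.33 ± 0.18 against prefrontal cortex (prefrontal cortex minus striatum -1.33, adjusted p = 9.15e-08) to 2.16 against cerebellum (cerebellum minus striatum -2.16 ± 0.18, adjusted p = 1.35e-13), and no other pair was. In striatum, where Trhr2 had its highest level, Trhr lay below background and under the mean of the other regions.

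Trhde, the degrading enzyme, was measured above the negative control median on all 40 arrays. Its cerebellum values were the tightest of any region and gene here, from 12.69 to 13.03 with a mean of 12.83 ± 0.11 (SD, n = 8). Hippocampus ran from 11.10 to 12.19 (mean 11.43 ± 0.35), prefrontal cortex from 10.19 to 11.28 (10.60 ± 0.43), amygdala from 8.63 to 10.47 (9.29 ± 0.57) and striatum from 6.57 to 8.90 (7.61 ± 0.71). Cerebellum overlapped no other region, while striatum overlapped amygdala through 1 array, Thr replicate 39 at 8.90.

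Against the other regions Trhde was higher in cerebellum by 3.10 ± 0.18 (limma adjusted p = 1.10e-18) and in hippocampus by 1.35 ± 0.18 (adjusted p = 7.66e-08). It was lower in striatum, with -3.42 ± 0.18 (adjusted p = 1.55e-19), and in amygdala, with -1.33 ± 0.18 (adjusted p = 1.04e-07), and prefrontal cortex did not pass (0.31 ± 0.18, adjusted p = 0.219). Of the 10 pairs of regions 9 were called, the largest being cerebellum over striatum at 5.22 ± 0.23, 37.2-fold (adjusted p = 1.08e-22). Hippocampus and prefrontal cortex, the remaining pair, differed by 0.83 ± 0.23 (adjusted p = 0.00598), under the 1-unit minimum.

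**Figure D3:**
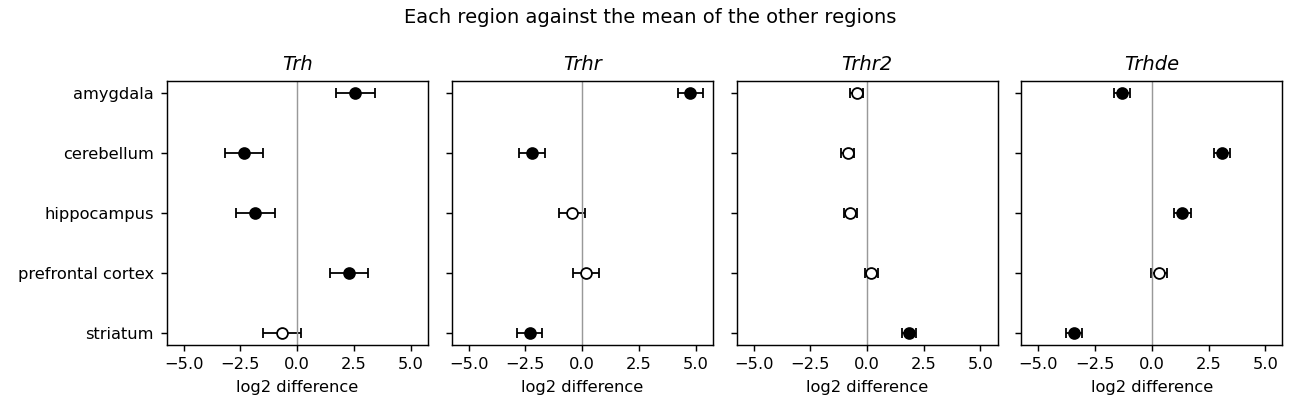
Difference of each region from the mean of the other regions for the 4 genes, in log2 units, with 95% confidence intervals from the limma fit over 40 arrays. The intervals use 1 spread per gene for all groups. Filled points were called (adjusted p under 0.05 and at least 1 log2 unit); the furthest point is Trhr in amygdala at 4.77, and Trhde runs from -3.42 in striatum to 3.10 in cerebellum.

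Pair by pair, the share of all genes called gives the scale for these counts. All 4 genes were called between amygdala and striatum (11.9% of all genes) and between prefrontal cortex and striatum (10.9%). For 5 pairs 3 of the 4 were called: amygdala against cerebellum (21.1% of all genes) and hippocampus (4.78%), cerebellum against prefrontal cortex (19.2%) and striatum (21.4%), and hippocampus against striatum (11.4%). The Trh call between cerebellum and striatum, and the Trhr calls of hippocampus with each of these regions, are between levels around or below background. Amygdala against prefrontal cortex gave 2 (3.83%), Trhr and Trhde, and cerebellum against hippocampus gave 2 (19.3%), the same pair of genes. Hippocampus against prefrontal cortex gave 1 (6.22%), Trh.

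The second question was whether the genotype of the deiodinase altered these levels. None of the 4 genes was called between Ala and Thr in any region, in the average over regions or in the F-test of whether the genotype difference varied between regions. Of all genes tested, limma called 0.120% in amygdala, 0% in cerebellum, hippocampus and prefrontal cortex, 0.0801% in striatum, 0.0200% in the average and 0.0401% in the F-test, so calls were rare among all genes too. The smallest unadjusted p among the 24 limma contrasts of the 4 genes was 0.144, for Trh in amygdala, while unadjusted p under 0.05 held for 5.33% of all genes in amygdala, 1.94% in cerebellum, 3.14% in hippocampus, 2.33% in prefrontal cortex, 6.14% in striatum and 5.37% in the average. The F-test p of the 4 genes lay between 0.37 and 0.83, with each adjusted p at 1.00, and 2.68% of all genes had an unadjusted F-test p under 0.05.

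In amygdala the mean of Trh was 7.52 ± 2.11 in Ala and 8.63 ± 2.39 in Thr (SD, n = 4). The fit used 1 spread of Trh for all groups, whose SDs ran from 0.16 (Thr striatum) to this 2.39. Its SE and interval are thus too narrow for amygdala. Ala minus Thr was -1.11 ± 0.75 (SE, 95% interval -2.62 to 0.40, limma adjusted p = 1.00). Each genotype had 1 array near background, so the groups overlapped, and the value rested on few arrays: leaving out single arrays gave -2.30 to -0.24. Omitting Ala replicates 1 and 2 with 3 arrays of other regions gave 0.60, but kept Thr replicate 5. With Thr replicate 5 omitted as well, an alternative chosen after seeing the data, it was -0.59 (limma adjusted p = 0.912). In prefrontal cortex the groups overlapped too, with a difference of 0.39 ± 0.75 (95% interval -1.12 to 1.89).

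In striatum the Ala arrays had Trh at 5.21, 5.53, 5.55 and 4.41 and the Thr arrays at 5.61, 5.77, 5.99 and 5.78. All 4 Ala arrays were below all 4 Thr arrays, at levels that exceeded the negative control median on 1 of the 8 arrays. The difference was -0.61 ± 0.75 (limma adjusted p = 0.953), and the exact two-sided permutation test gave p = 0.0286, the smallest that 4 against 4 arrays allow and 1 of 20 such tests made here. Hippocampus gave -0.53 ± 0.75, with an exact permutation p of 0.0571, and cerebellum 0.07 ± 0.75, both below background. The fit uses 1 estimate of the spread for all groups, and the spread of Trh was widest in amygdala and prefrontal cortex. The SE of 0.75 is thus wide for striatum, hippocampus and cerebellum. Averaged over regions Ala minus Thr was -0.36 ± 0.33 (95% interval -1.03 to 0.32, limma adjusted p = 0.990).

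Trhr in amygdala stood at 7.64, 10.01, 11.66 and 10.21 in Ala and at 8.41, 10.92, 10.76 and 10.42 in Thr. The SDs of 1.67 in Ala and 1.16 in Thr were wider than in any other region, so the pooled SE is too small for them. The highest and the lowest array were both Ala, and the difference was -0.25 ± 0.50 (95% interval -1.26 to 0.77, limma adjusted p = 1.00). Without Ala replicate 1 it was 0.50 and without Thr replicate 5 -0.82, and without both, Ala replicate 2 and the 3 arrays of other regions it was 0.24, so its sign is not settled. Over the other 4 regions the differences ran from -0.33 in prefrontal cortex to 0.40 in cerebellum. The average was -0.14 ± 0.22 (95% interval -0.60 to 0.31, adjusted p = 1.00).

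Trhr2 in striatum stood at 6.60, 7.71, 6.20 and 7.35 in Ala and at 6.63, 6.91, 6.69 and 7.04 in Thr. The Ala arrays spread more widely and enclosed the Thr arrays, and the difference was 0.15 ± 0.26 (95% interval -0.37 to 0.67, limma adjusted p = 0.966). Prefrontal cortex gave -0.29 ± 0.26 and hippocampus -0.31 ± 0.26, both at levels below background. The average was -0.01 ± 0.11, and its 95% interval of -0.24 to 0.22 was the narrowest of the 4 genes.

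Trhde, the gene with levels well above background in every region, had average Ala minus Thr of 0.03 ± 0.14 (95% interval -0.26 to 0.32, limma adjusted p = 1.00). In cerebellum the Ala arrays stood at 13.03, 12.84, 12.76 and 12.74 and the Thr arrays at 12.69, 12.85, 12.88 and 12.82, a difference of 0.03 ± 0.32. The SDs there were 0.13 in Ala and 0.08 in Thr, so the pooled SE is wide for cerebellum. In amygdala the Ala arrays stood at 10.47, 9.35, 8.98 and 9.24 and the Thr arrays at 9.59, 8.78, 8.63 and 9.24. The groups overlapped, and the amygdala difference of 0.45 ± 0.32 fell to 0.13 without Ala replicate 1, the array with the highest striatum marker level. In striatum the Ala arrays stood at 8.20, 6.57, 7.36 and 7.45 and the Thr arrays at 7.24, 7.23, 8.90 and 7.93. That difference was -0.43 ± 0.32 (adjusted p = 0.901) and was -0.07 without Thr replicate 39.

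**Figure D4:**
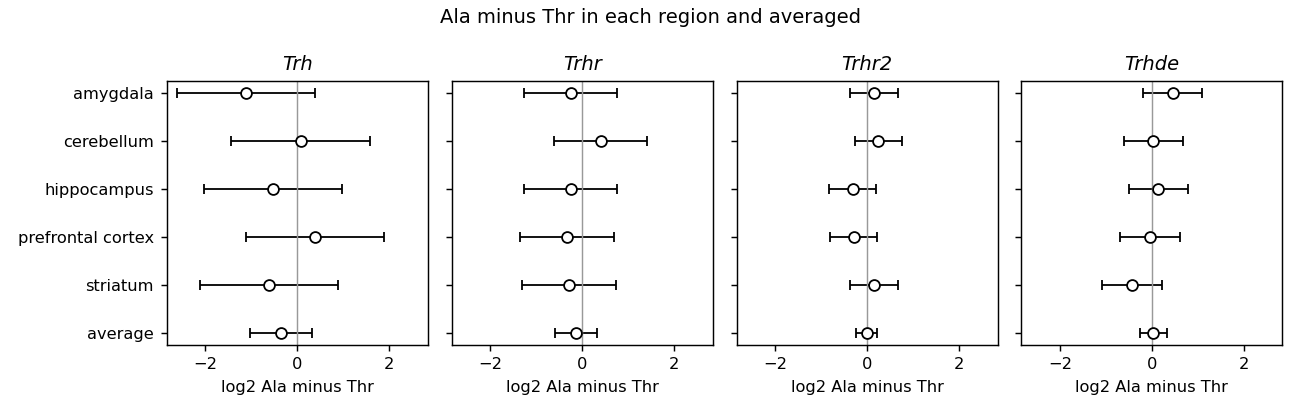
Ala minus Thr in log2 units for the 4 genes in each region and averaged over regions, with 95% confidence intervals from the limma fit (4 arrays a group). Open points were not called; every interval includes 0, and the widest are those of Trh (in amygdala -2.62 to 0.40).

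Genes that act with TRH were taken from 4 lists. The maturation list holds the enzymes that make the peptide from its precursor and proteins that inhibit or chaperone them, with 7 of 8 genes on the array and tested. In cerebellum 4 of these 7 were called lower, with a list median of -1.75 against 0.00 for all genes (10.1% of all genes called lower). These were Pam (-3.35), which makes the carboxy-terminal amide, Cpe (-2.55), which trims basic residues after cleavage, Qpct (-1.91), which cyclises the amino-terminal glutamine, and Pcsk1n (-1.75), an inhibitor of the convertase PC1/3. In cerebellum Trh and these 4 genes of the list were thus called lower than in the other regions, the inhibitor of PC1/3 included.

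In amygdala Pam (1.21) and Pcsk1 (1.14), which encodes PC1/3, were called higher, 2 of 7 against 3.40% of all genes. In prefrontal cortex the same genes were called, Pcsk1 by 1.53 and Pam by 1.02 against 3.28% of all genes, so the regions with the highest Trh were those in which Pcsk1 and Pam were called higher. Pam in prefrontal cortex was close to the 1-unit minimum, and the count dropped to 1 with arrays centred on their median and when any 1 of 5 single arrays was left out. In striatum Qpct was higher by 1.20 and Pcsk1 lower, with -1.69, against 5.71% of all genes higher and 5.20% lower. In hippocampus no maturation gene was called, against 3.57% and 2.34%.

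Of the peptidase list, which holds cytosolic and membrane enzymes related to TRH breakdown or to Trhde in sequence, 6 of 8 genes were tested and none was called in any region, where 5.21% of all genes (prefrontal cortex) to 18.7% (cerebellum) were. The differences of Anpep, Aopep, Enpep, Erap1, Pgpep1 and Prep lay between -0.41 and 0.59. The means of Anpep (5.10) and Enpep (4.87) over all arrays lay below the background range, and that of Pgpep1 (6.36) at its upper edge. Log2 differences at such levels can understate a change. Pgpep1, the cytosolic pyroglutamyl peptidase, differed by 0.21 in cerebellum and 0.16 in striatum, where Trhde differed by 3.10 and -3.42. Prep, a cytosolic prolyl peptidase, differed by at most 0.15 in size.

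Of 21 genes for signalling downstream of the receptors, 16 were on the array and tested. Calls went in both directions in each region. In amygdala 1 was higher and 2 lower (3.40% and 2.44% of all genes), in cerebellum 5 and 4 (8.69% and 10.1%) and in hippocampus 3 and 1 (3.57% and 2.34%). Prefrontal cortex had 2 higher and 1 lower (3.28% and 1.94%) and striatum 3 and 5 (5.71% and 5.20%). The amygdala count was 5 in all, from 3, in the fit without the 6 arrays named above. Gnaq and Gna11, the G protein subunits that couple to TRH receptors, were called nowhere, with differences of at most 0.95 in size. In amygdala, where Trhr was highest, Grk3, a kinase that phosphorylates activated receptors, was higher by 1.09, while Plcb4, a phospholipase C (-1.96), and Prkcd, a protein kinase C (-1.38), were lower. In striatum Rgs4, which shortens Gq signalling, was higher by 4.13, Plcb1 by 1.64 and Prkcb by 1.05, and Grk3 was lower, with -2.36. Plcb4 (5.48) and Prkcd (3.13) were higher and Rgs4 (-6.50) lower in cerebellum. Kcnk9, a leak potassium channel that TRH is known to close in motoneurons, was higher by 1.32 in cerebellum and lower in striatum (-2.02).

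**Figure D5:**
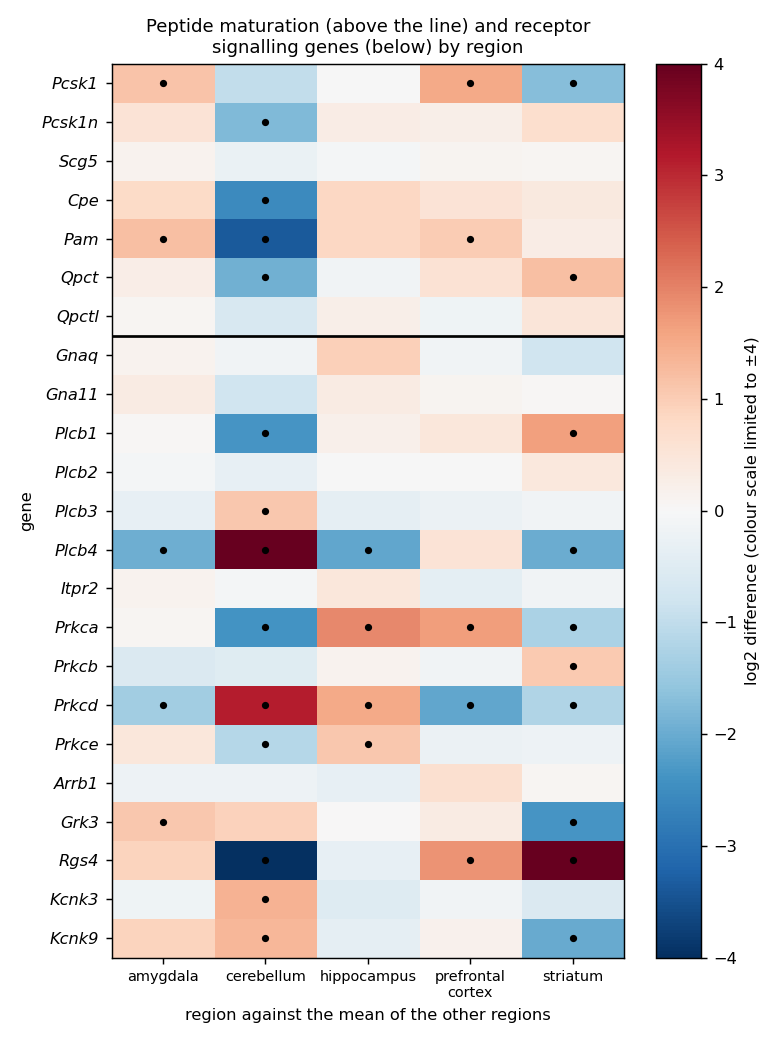
Difference of each region (columns) from the mean of the other regions for the 7 tested maturation genes (above the line) and 16 signalling genes (below), as colour in log2 units, red higher and blue lower, with the scale limited to 4 units either way. Dots mark called genes; Pam and Cpe are lower in cerebellum and Rgs4 ranges from -6.50 in cerebellum to 4.13 in striatum.

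Of the thyroid axis list, 11 of 14 genes were tested. In cerebellum 4 were called lower: Thrb (-3.10), a thyroid hormone receptor, Arnt2 (-2.47), a partner of Sim1 in hypothalamic development, Dio2 (-1.06) and Mc4r (-1.05), the melanocortin receptor. Thrb was higher in amygdala by 1.45, Dio2 in prefrontal cortex by 1.12 and Mc4r in hippocampus by 1.05, and striatum had none called. The mean of Mc4r over all arrays was 4.08, below the background range, where levels carry little order. Of all genes, 10.1% were called lower in cerebellum, 3.40% higher in amygdala, 3.28% in prefrontal cortex and 3.57% in hippocampus, and 10.9% either way in striatum. Between genotypes no gene of the 4 lists was called in any region or in the average. Scg5, a chaperone of the convertase PC2, had an average difference of -0.24 ± 0.09 (limma adjusted p = 0.849).

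Signal of hypothalamus or pituitary was looked for in the arrays, since Trh and Trhr mark cells of these tissues. The mean of 13 hypothalamus markers ran from 4.42 to 4.92 in amygdala and from 4.18 to 4.64 elsewhere, below the background range, with 1 to 3 of the 13 above the negative control median on each amygdala array. In amygdala the Thr arrays (4.81 to 4.92) lay above the Ala arrays (4.42 to 4.61), and Cartpt ran from 7.74 to 8.53 in Thr and from 6.57 to 6.95 in Ala. Cartpt (-1.51 ± 0.27, limma adjusted p = 0.00433) and Avp (-1.54 ± 0.30, adjusted p = 0.0156), which encodes vasopressin, were called lower in Ala amygdala, against 0.120% of all genes called. The other tested markers of the list were not called there, with differences from -0.33 (Oxt) to 0.28 (Pmch). Sim1, which was not tested, ran from 4.37 to 5.95 in Thr amygdala and from 3.52 to 4.32 in Ala. It exceeded the negative control median on Thr replicate 6 only. Nkx2-1, Hmx3 and Gal, also not tested, overlapped between the genotypes. Among amygdala arrays Avp exceeded the negative control median on Thr replicates 6 (6.27) and 7 (6.79) only. The Trh difference of -1.11 in amygdala was not called, and its sign depended on which arrays were omitted. Hcrt, which encodes orexin, and Oxt, which encodes oxytocin, did not exceed 5.82 on any amygdala array, and Pomc did not exceed 5.52. The mean of 7 pituitary markers was 5.32 on Thr amygdala replicate 5, where Trh was 5.06, and 4.00 to 4.46 on the other amygdala arrays. The part of these transcripts in the levels of Trh was not tested.

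Genes whose regional profile was most like that of each member were found by Pearson correlation over the 10 group means. For Trh they were Sdk1 (r = 0.97), Cdk18 (0.97), Mtarc2 (0.96), Cartpt (0.96) and Pcdh18 (0.95). Of these Cartpt, the precursor of the CART peptides, also had the highest Spearman rho, 0.99, shared with Gipc1, and Sdk1 had region means of 3.93 to 4.68, below background. Over the deviations of the 40 arrays from their group means the genes most like Trh were Grxcr2 (0.78), Syt10 (0.73), Fstl5 (0.72), Tmem255a (0.71) and Slco3a1 (0.71). By that measure Cartpt stood at -0.29 and Gipc1 at -0.27. Syt10, a synaptotagmin, was like Trh in both respects, with r = 0.95 over group means. Its region means were 12.14 ± 0.77 in amygdala and 12.44 ± 1.14 in prefrontal cortex (SD, n = 8) and 9.93 to 10.61 in the other regions.

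For Trhr the most similar profiles were Unc5d (0.98), a netrin receptor, Cmbl (0.98), Plxnc1 (0.98), a semaphorin receptor, Resp18 (0.98), a protein of endocrine granules, and Cmtm4 (0.97). Unc5d was at 11.65 ± 0.72 in amygdala and at 6.93 ± 0.64 in striatum. Over array deviations they were Vgll3 (0.76), D630023F18Rik (0.73), Crim1 (0.72), Hap1 (0.71) and Aloxe3 (0.71). Trh and Trhr correlated at 0.75 over group means and at 0.67 over array deviations, values to which amygdala replicates 1 and 5, low in both genes, contributed.

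For Trhr2 the most similar profiles were Baz1a (0.99), Atp8b2 (0.98), Dnpep (0.98), Znfx1 (0.98) and Asic4 (0.98), which share its highest level in striatum. Baz1a was at 7.87 ± 0.51 in striatum and between 5.78 and 6.62 elsewhere. For Trhde they were Dgkz (0.99), a diacylglycerol kinase, Setbp1 (0.98), Tmem178 (0.98), Rnf146 (0.98) and Rnf115 (0.98), and Tmem178 fell from 13.48 ± 0.23 in cerebellum to 8.45 ± 1.41 in striatum. Over array deviations the closest genes were Cryaa (0.65), Sppl2b (0.64), Iqck (0.59), Dpf2 (0.57) and Cbarp (0.56) for Trhr2 and Col24a1 (0.67), Adk (0.67), Dlc1 (0.66), Adcy2 (0.65) and Thsd7b (0.63) for Trhde. Trhr2 and Trhde correlated at -0.83 over group means and at -0.21 over array deviations. Striatum was the only region with Trhr2 above the negative control median on all arrays. The order of the other regions thus carries little meaning in that -0.83. These correlations describe the arrays: the 10 group means share 5 regions, genes on 1 array share its RNA, and the genes were picked from 14978 by the size of the value.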

How the data were processed

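The deposited table holds log2 signals per probe set, which the authors computed with RMA per the submitters' processing notes (software release not given in the sources used here). This method includes background correction, normalisation between arrays and probe summaries; array medians lay between 6.12 and 6.32, and values were used as deposited. Of 28846 rows, 6640 were controls, 19572 had 1 symbol in the platform annotation, which can be old, and 2634 transcript rows had none. Symbols were updated through the RefSeq GRCm38.p6 table. The filter on dim genes was the 30th percentile of the table (log2 4.60), passed on 4 or more arrays. Models with 10 group means were fitted with limma 3.58.1 in R 4.3.3 (eBayes with a trend, 30 residual degrees of freedom), and adjusted p-values in the text come from this fit, over 14978 genes. The code was tested on simulated data. Alternatives covered scaling, filter, probe set choice, spread, weights and omitted arrays, with 1 set of omitted arrays added after seeing the data. Named genes were the 4 members, listed genes called in a comparison (largest first, up to 8 a list, or those of a fixed list named for their role), marker genes, and the 5 genes most like each member by each measure. Members, lists and omitted arrays were chosen with earlier results of these data known. The number of arrays limits the precision.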

Additional observations from a re-analysis of the deposited data

Results flagged for a closer look

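Trh on Thr amygdala replicate 5 was 5.06, against 9.56 to 10.01 on the other 3 Thr amygdala arrays, so that its gap to the nearest of them was 0.909 of the range of the group. Of 40 combinations of gene and group examined in this way this was the single array to stand apart, and the limit used is one that chance alone passes in about 1 in 20 groups. Trhr was lowest on the same array among the Thr amygdala arrays, at 8.41. The array had the highest mean of striatum markers in its group, 10.02, and the highest mean of pituitary markers in the region, 5.32, which is below the background range. Thr replicate 8, where Trh was 9.56, exceeded it in Drd2 (6.66 against 6.09), Penk (16.30 against 16.04), Tac1 (11.87 against 11.70) and Gpr6 (6.26 against 6.15). That array was lower in Drd1, Rgs9, Ppp1r1b and Pde10a. The part of these transcripts in the Trh value was not tested. Without this array Ala minus Thr of Trh in amygdala was -2.30, and it did not pass the threshold under any array left out (lowest adjusted p = 0.298, limma).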

How the results depend on the processing

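Genotype differences of the 4 genes stayed below the adjusted threshold under every limma alternative, and the 20 differences of a gene in 1 region from the mean of the others, called or not, kept their call and sign in all 800 values that left out 1 of the 40 arrays. Signs of small differences did change, and where they did the cause was not tested. Quantile normalisation gave -0.0072 for Trhde, Ala minus Thr, in cerebellum. Array weights gave -0.059 for Trhr, cerebellum minus striatum, -0.080 for Trhr2, Ala minus Thr, in striatum and -0.037 for Trhde on average. Omitting Ala amygdala replicates 1 and 2, Thr hippocampus replicates 23 and 24 and Ala striatum replicate 36 gave Ala minus Thr of 0.60 for Trh in amygdala, 0.040 for Trh on average, 0.81 for Trhr in amygdala, 0.043 for Trhr on average and -0.050 for Trhde on average, with -0.027 for Trhr in prefrontal cortex against the other regions and -0.048 for Trhr, cerebellum minus striatum. With Thr amygdala replicate 5 omitted as well, chosen after seeing the data, Ala minus Thr in amygdala was -0.59 for Trh, 0.24 for Trhr and -0.015 for Trhr2, that of Trhde on average was -0.014, and Trhr gave -0.099 in prefrontal cortex and -0.048 in cerebellum minus striatum. Trh was then called between amygdala and prefrontal cortex (1.67) and between hippocampus and striatum (-1.07). The exact permutation test, unadjusted, took Trh in striatum (-0.61) past 0.05. With adjusted p alone Trhr2 would be called lower in amygdala (-0.45), cerebellum (-0.85) and hippocampus (-0.73), and in Thr arrays alone its cerebellum difference reached -1.01.

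With single arrays left out, Ala minus Thr of Trh ranged from -0.13 to 0.36 in cerebellum and from -0.051 to 1.02 in prefrontal cortex. That of Trhr ranged from -0.84 to 0.50 in amygdala, from -0.46 to 0.061 in hippocampus and from -0.26 to 0.0087 on average. Trhr2 gave -0.0053 to 0.30 in amygdala, -0.097 to 0.41 in striatum and -0.061 to 0.040 on average. Trhde gave -0.030 to 0.068 in cerebellum, -0.093 to 0.27 in hippocampus, -0.28 to 0.13 in prefrontal cortex and -0.035 to 0.10 on average. Trh in amygdala minus prefrontal cortex ranged from -0.094 to 0.82 and Trhr in cerebellum minus striatum from -0.048 to 0.23. The call of Trh between cerebellum and striatum was lost without Ala cerebellum replicate 9, Thr cerebellum replicate 14 or 16, or Ala striatum replicate 34 or 35 (largest adjusted p = 0.0613). The maturation list kept 1 call in prefrontal cortex without Ala cerebellum replicate 9, Ala hippocampus replicate 18, Ala prefrontal cortex replicate 25 or 26 or Thr prefrontal cortex replicate 29. The thyroid axis list had 0 calls in hippocampus, from 1, with a filter at the 50th percentile or without Ala hippocampus replicate 17.

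No paired analysis was possible because the labels number the arrays from 1 to 40 with no number shared by groups. Trh, Trhr and Trhr2 were near or below the negative controls in most regions, which limits what differences there can show.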
